A study of Mus musculus with 2 samples.

Results

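Heat-shock proteins and chaperones are the proteins that fold, refold and hold other proteins, and 10 of their genes were followed across the immune cells of a mouse tumor. The 10 were Hspa1a, Hspa1b, Hspb1, Hsph1, Dnajb1, Hsp90aa1, Hsp90ab1, Hspa8, Hspd1 and Hspe1, chosen by name from the 27998 genes of both count matrices. The first 6, Hspa1a to Hsp90aa1, formed the inducible list and the other 4 the constitutive list.

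One library was made from KO mice (E8i-cre+, Tcf7 FL/FL) and 1 from WT mice (E8i-cre-, Tcf7 FL/FL). Floxed Tcf7 alleles were thus shared by both groups, and the Cre was the difference in their genotype labels. An effect of the Cre cannot be told apart from differences between the libraries, their mice and their handling. E8i is an enhancer of the Cd8a locus that drives Cre in mature CD8 T cells, and Tcf7 encodes the transcription factor TCF-1. Females bore B16Ova tumors, a melanoma line that carries ovalbumin, in the flank for 13 days. Each library pooled 3 tumors, from each of which 2000 cells of each of 4 sorted immune categories were mixed, and 7000 cells were loaded. With 1 library a genotype and its tumors pooled, no value has a replicate check, p-values were not computed, and the intervals given cover counting error only.

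After filtering, 1083 KO cells and 983 WT cells remained, with median depths of 8117 UMIs (unique molecular identifiers, 1 for each captured transcript) in KO and 6168 UMIs in WT. Cells were clustered without the chaperone genes and named from marker genes, and 7 classes with 50 or more cells in both libraries were compared. They held 184 KO and 170 WT CD8 T cells, 177 KO and 178 WT CD4 T cells, 133 KO and 117 WT T cells with no Cd4, Cd8a or Cd8b1 UMI, 186 KO and 169 WT type 1 dendritic cells (cDC1), 99 KO and 54 WT type 2 dendritic cells (cDC2), 60 KO and 97 WT mature dendritic cells, and 63 KO and 69 WT macrophages. Tcf7 stood at 53.5 CPM in KO CD8 T cells, against 154 CPM in WT CD8 T cells, where CPM is a gene's UMIs scaled to a common total of UMIs of the class. It was also lower in KO CD4 T cells, at 83.1 CPM, against 127 CPM in WT CD4 T cells. T cells without a co-receptor UMI had 187 CPM in KO and 162 CPM in WT. UMIs outside the deleted exons would still be counted, so Tcf7 levels do not measure how many cells lost the protein.

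Heat-shock genes are switched on by the transcription factor HSF1, which binds repeats of the letters GAA and TTC in promoters when unfolded protein builds up. Hspa1a and Hspa1b encode the inducible HSP70, which needs the co-chaperone DNAJB1 (HSP40) to take up clients and HSPH1 (HSP110) to let them go. HSPB1 is a small holding chaperone, and Hsp90aa1 and Hsp90ab1 encode the stress-inducible and the constitutive cytosolic HSP90, which finish the folding of kinases and receptors. Hspa8 encodes HSC70, the HSP70 of unstressed cells, while Hspd1 and Hspe1 encode HSP60 and HSP10, the barrel and lid of the mitochondrial folding chamber. Inducible heat-shock genes are also known to respond to tissue dissociation.

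The promoter letters are shown first because they separate the members in the way the lists do only in part. Windows reaching from 250 bases before the transcription start to 50 bases after it were taken from RefSeq on GRCm38.p6. They matched 7 of the 10 members by symbol and were searched for GAANNTTC and TTCNNGAA, each of which reads the same on the other strand. The 250 bases before the start are printed 5′ to 3′, with matches in capitals, for Hspa1a (chr17:34972157-34972406, minus strand), Hspa1b (chr17:34959239-34959488, minus strand), Hspb1 (chr5:135887669-135887918, plus strand), Hsph1 (chr5:149636337-149636586, minus strand) and Hspe1 (chr1:55087898-55088147, plus strand).
Hspa1a: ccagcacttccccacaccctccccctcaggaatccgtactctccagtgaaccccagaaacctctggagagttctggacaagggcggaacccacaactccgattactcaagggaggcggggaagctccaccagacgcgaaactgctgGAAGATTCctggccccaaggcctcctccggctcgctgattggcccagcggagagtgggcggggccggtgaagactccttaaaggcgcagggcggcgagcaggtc
Hspa1b: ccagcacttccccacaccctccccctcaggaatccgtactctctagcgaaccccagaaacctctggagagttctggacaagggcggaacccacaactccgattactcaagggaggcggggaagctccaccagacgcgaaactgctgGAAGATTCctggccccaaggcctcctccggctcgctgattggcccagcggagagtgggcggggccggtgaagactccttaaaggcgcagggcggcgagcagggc
Hspb1: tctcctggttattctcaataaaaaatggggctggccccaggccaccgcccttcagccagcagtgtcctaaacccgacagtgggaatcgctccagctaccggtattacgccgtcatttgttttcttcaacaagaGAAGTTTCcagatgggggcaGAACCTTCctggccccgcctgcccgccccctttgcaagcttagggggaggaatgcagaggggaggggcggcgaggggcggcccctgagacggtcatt
Hsph1: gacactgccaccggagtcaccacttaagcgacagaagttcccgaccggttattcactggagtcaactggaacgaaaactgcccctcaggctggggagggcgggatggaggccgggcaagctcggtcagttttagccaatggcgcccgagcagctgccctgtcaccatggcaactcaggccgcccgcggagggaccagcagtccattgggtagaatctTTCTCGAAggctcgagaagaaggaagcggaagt
Hspe1: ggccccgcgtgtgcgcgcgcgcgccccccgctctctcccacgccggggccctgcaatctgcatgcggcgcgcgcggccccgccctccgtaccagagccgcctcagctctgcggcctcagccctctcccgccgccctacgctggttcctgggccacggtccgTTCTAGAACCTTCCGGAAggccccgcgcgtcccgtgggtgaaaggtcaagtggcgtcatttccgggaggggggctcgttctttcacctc

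Of the 10 windows of these 7 genes, 7 windows, from 6 genes, had at least 1 match, and 15.1% of all 32851 windows had one. A triplet, a pair extended by 2 further letters of any kind and 1 more unit in alternating order, stood in 4 of the 10 windows, from 3 genes, against 0.603% of all windows of that length. These 4 windows form 2 overlapping pairs. Those 3 genes were Hsph1, whose triplet lies after the start, and Hspd1 with Hspe1. In the Hspe1 window the capitals run from 89 to 71 bases before the start, and the same run, read on the other strand, lies 144 to 126 bases before the second of the 2 Hspd1 starts, since these head-to-head genes share 285 of 300 bases between those windows. Dnajb1 had no match in either of its 2 windows, which says only that these letters were not there. The Hspa1a and Hspa1b windows were the same at 296 of 300 bases and carried the same single match; counted from 1 at the 5′ end, the differences from Hspa1a to Hspa1b were C44T, T47C, T249G and C276T, none of them in the capitals. A match is a description of letters and not of binding.

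Whether the counts tell the HSP70 gene pair apart is uncertain. The GENCODE transcripts of Hspa1a and Hspa1b (chr17:34969190-34972156 and chr17:34956436-34959238, GRCm38) were the same at 93.6% of aligned bases, but none of the 451 50-base words in the last 500 bases of one occurred in the other. Hspa1b made up 21.0% of the pair's UMIs in KO (95% Clopper-Pearson interval 18.7 to 23.4%) and 21.1% in WT (18.5 to 24.0%). The end of the transcript that was sequenced and the use of strand are not given in the sources used here, so the split cannot be relied on, nor can that of Hspa1a against the exon-overlapping Gm20481 on the opposite strand or of the overlapping exons of Hspd1 and Hspe1. The 2 HSP70 genes are therefore mostly given as a sum.

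The constitutive chaperones were higher in KO than in WT in all 7 classes. Summed over Hsp90ab1, Hspa8, Hspd1 and Hspe1, they took 6877 CPM in KO CD8 T cells, against 5219 CPM in WT CD8 T cells, a ratio of 1.32 (95% counting interval 1.28 to 1.36). The sum was 6675 CPM in KO CD4 T cells and 4576 CPM in WT CD4 T cells, a ratio of 1.46 (1.41 to 1.51). In cDC1 it was 7617 CPM in KO and 6164 CPM in WT, a ratio of 1.24 (1.21 to 1.26). The difference was thus not limited to the class in which the Cre is driven. Ratios were 1.35 in T cells without a co-receptor UMI, 1.34 in cDC2, 1.20 in mature dendritic cells and 1.06 (1.01 to 1.12) in macrophages. In each of the 9 alternatives computed per class, from another cell filter to the removal of cycling cells, the ratio stayed above 1. In CD4 T cells the lowest of these alternative ratios was 1.17. The median log2 ratio over all genes measured lay between -0.09 and 0.09 in these classes.

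Hspd1, the mitochondrial HSP60, had the largest ratio of the 4 constitutive members in 5 of 7 classes, the exceptions being cDC2 and mature dendritic cells, where Hspa8 had it. It stood at 358 CPM in KO CD8 T cells, against 204 CPM in WT CD8 T cells, a ratio of 1.75 (1.51 to 2.03). It stood at 345 CPM in KO CD4 T cells, against 164 CPM in WT CD4 T cells, a ratio of 2.11 (1.77 to 2.53). T cells without a co-receptor UMI gave 231 CPM in KO and 134 CPM in WT. The 3 T cell classes therefore all lay past 1.5-fold, as did macrophages, with 181 CPM in KO and 111 CPM in WT. In cDC1 the values were 198 CPM in KO and 136 CPM in WT, in cDC2 143 CPM in KO and 109 CPM in WT, and in mature dendritic cells 86.3 CPM in KO and 70.4 CPM in WT, where the interval of the ratio, 0.809 to 1.85, included 1. Among these 7 classes and the monocytes, Hspd1 was in both libraries highest in CD8 and then CD4 T cells, whose counting intervals overlapped, and lowest in mature dendritic cells in KO and in monocytes in WT. The few melanoma cells, 12 in KO and 20 in WT, had more, at 1082 CPM in KO and 576 CPM in WT, although 1 KO cell held 104 of its 167 UMIs.

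Hspe1, the HSP10 lid, was also higher in KO in 7 of 7 classes, but less evenly. It stood at 496 CPM in KO CD4 T cells, against 260 CPM in WT CD4 T cells, a ratio of 1.91 (1.65 to 2.21), the 1 class past 1.5-fold. CD8 T cells had 530 CPM in KO and 429 CPM in WT, and cDC1 had 524 CPM in KO and 407 CPM in WT, ratios of 1.23 and 1.29. The intervals in T cells without a co-receptor UMI, mature dendritic cells and macrophages included 1.

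The constitutive HSP90, Hsp90ab1, stood at 3239 CPM in KO CD8 T cells, against 2408 CPM in WT CD8 T cells, a ratio of 1.35 (1.29 to 1.41). CD4 T cells had 3156 CPM in KO and 2032 CPM in WT, a ratio of 1.55 (1.47 to 1.64). T cells without a co-receptor UMI had 2647 CPM in KO and 1603 CPM in WT, a ratio of 1.65. Outside the T cells the ratio was 1.26 in cDC1 and 1.29 in cDC2, while in mature dendritic cells (2232 CPM in KO, 2159 CPM in WT) and macrophages (1844 CPM in KO, 1753 CPM in WT) the interval included 1. Hspa8, which encodes HSC70, was highest of the 7 classes in cDC1, with 4595 CPM in KO and 3792 CPM in WT, and its ratio of KO over WT ran between 1.04 in macrophages and 1.40 in cDC2, so that it passed 1.5-fold in 0 of 7 classes.

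Within clusters of the CD8 class the picture was uneven. The cluster led by Gzmc and Prf1 held 61 of 184 KO cells and 26 of 170 WT cells, and in it the constitutive list had 7324 CPM in KO and 6088 CPM in WT, a ratio of 1.20 (1.15 to 1.26). In the cluster led by Gzma it had 4475 CPM in 48 KO cells and 3817 CPM in 83 WT cells, a ratio of 1.17 (1.08 to 1.27). The cluster with Lef1, Satb1 and Dapl1 among its leading genes went the other way, with 4305 CPM in 44 KO cells and 4750 CPM in 38 WT cells, a ratio of 0.906 (0.820 to 1.002), and Hsp90ab1 there had 1552 CPM in KO and 1894 CPM in WT. The makeup of the CD8 class by cluster thus moved with the class ratio, and its part in the 1.32 was not tested. Among CD4 T cells, all 5 clusters with at least 5 cells in both libraries had ratios above 1, between 1.08 (interval 0.925 to 1.25) in the cluster with Lef1 and 1.68 in the cycling cluster, with 1.16 in the cluster led by Foxp3. In cDC1 the ratio was 1.26 in the non-cycling main cluster and 1.15 in the cycling one.

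**Figure D1:**
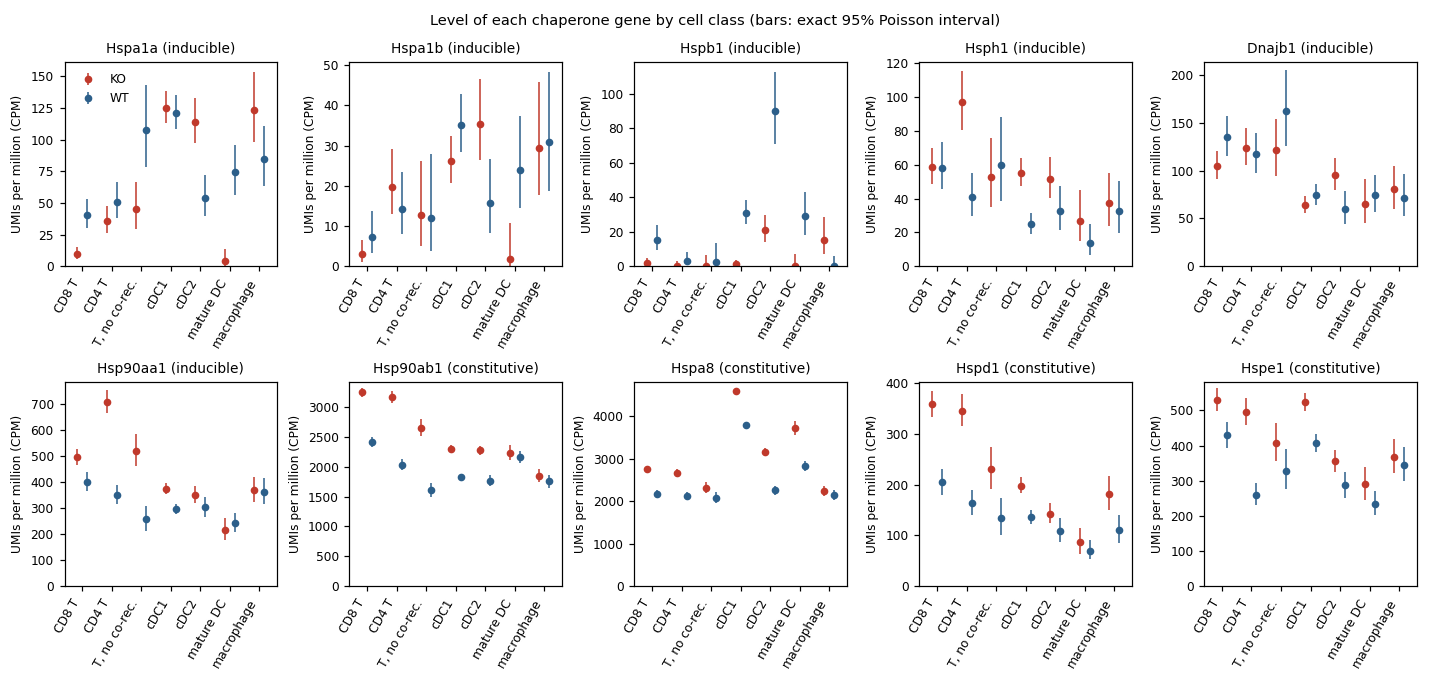
Level of each of the 10 genes (y axis, CPM) in the 7 compared classes (x axis), with KO in red left of WT in blue; points are class sums and bars exact 95% Poisson intervals. Hsp90ab1, Hspa8, Hspd1 and Hspe1 lie higher in KO in every class, whereas Hspa1a, Hspa1b and Hspb1 move in both directions.

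The inducible list was less uniform, and Hsp90aa1 held 1006 of its 1366 UMIs in KO CD8 T cells and 499 of its 816 UMIs in WT CD8 T cells. Its sum was higher in KO in 6 of 7 classes, with 987 CPM in KO CD4 T cells, against 579 CPM in WT CD4 T cells, a ratio of 1.71 (1.55 to 1.88). Over the 9 alternatives that CD4 ratio was as low as 1.25. The sum was lower in KO mature dendritic cells, at 316 CPM, against 459 CPM in WT mature dendritic cells, a ratio of 0.690 (0.570 to 0.831). In CD8 T cells it stood at 677 CPM in KO and 659 CPM in WT, with an interval that included 1 (0.941 to 1.12). Without Hsp90aa1 the list was higher in KO in 3 of 7 classes, and with Hspa1a and Hspa1b alone in 2 of 7. In mature dendritic cells the sum had a ratio of 1.04 without the cells of 10 or more Hspa1a and Hspa1b UMIs, which were 0 KO and 3 WT cells. Removing them trimmed WT alone, so the 1.04 cannot show a direction. In cDC2 and in T cells without a co-receptor UMI the direction turned when classes were drawn from each cell's own markers. Per 1000 constitutive UMIs, CD8 T cells held 98.4 inducible UMIs in KO and 126 in WT, mature dendritic cells 49.98 in KO and 86.8 in WT, and CD4 T cells 148 in KO and 126 in WT.

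Hsp90aa1 followed the constitutive members in the T cells. It stood at 710 CPM in KO CD4 T cells, against 353 CPM in WT CD4 T cells, a ratio of 2.01 (1.78 to 2.28). It stood at 523 CPM in KO T cells without a co-receptor UMI, against 258 CPM in their WT counterparts, a ratio of 2.03 (1.62 to 2.56). CD8 T cells had 498 CPM in KO and 403 CPM in WT, a ratio of 1.24 (1.11 to 1.38). Among the 7 classes the level was lowest in mature dendritic cells in both libraries, and there it was 219 CPM in KO and 244 CPM in WT, with an interval of 0.705 to 1.14.

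Hsph1, the HSP110 that recharges HSP70, was higher in KO in 6 of 7 classes. CD4 T cells had 96.8 CPM in KO and 40.7 CPM in WT, a ratio of 2.38 (1.67 to 3.45), and cDC1 had 55.1 CPM in KO and 24.97 CPM in WT, a ratio of 2.20 (1.65 to 2.97). One KO cDC1 held 33 of the 171 UMIs of that class, and without the top cell of each library the log2 ratio was 1.09. CD8 T cells had 58.5 CPM in KO and 58.2 CPM in WT and a difference was not detectable at this depth, with an interval of 0.743 to 1.37. Dnajb1, the HSP40 partner, differed little in most classes. In CD8 T cells 105 CPM in KO and 135 CPM in WT gave a ratio of 0.778 (0.633 to 0.959). In cDC2 95.5 CPM in KO and 60.05 CPM in WT gave 1.59 (1.14 to 2.25), and the other 5 intervals included 1.

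Hspa1a and Hspa1b, the stress-inducible HSP70 genes, were lower in KO in 5 of 7 classes and rested on few UMIs. CD8 T cells had 26 UMIs of the pair in KO, or 12.9 CPM, and 59 UMIs in WT, or 47.7 CPM, a ratio of 0.270 (0.163 to 0.435). One WT CD8 T cell held 46 of those 59 UMIs, and without the top cell of each library the log2 ratio was -0.49 in place of -1.89. T cells without a co-receptor UMI had 32 UMIs in KO and 50 UMIs in WT, a ratio of 0.487 (0.302 to 0.774). Without the top cell of each library the log2 ratio was -0.45 in place of -1.04. The ratio was 2.18 without the cells of 10 or more UMIs of the pair, which were 0 KO and 2 WT cells. Removing them by the compared value trimmed WT alone, so the 2.18 cannot show a direction. Mature dendritic cells differed most, with 3 UMIs in KO and 78 UMIs in WT, a ratio of 0.0587 (0.0118 to 0.178). There 1 WT cell held 43 of the 78 and 9 of 97 WT cells held all of them, against 2 of 60 KO cells. Without the top cell of each library the log2 ratio of that class was -4.48 in place of -4.09. In cDC2 the direction was the opposite, with 150 CPM in KO and 69.7 CPM in WT, a ratio of 2.15 (1.6 to 2.92). In cDC1, the class with more UMIs of the pair than any other, it had 151 CPM in KO and 157 CPM in WT. In CD4 T cells it had 55.6 CPM in KO and 65.2 CPM in WT, both with intervals that included 1.

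The order of the classes by HSP70 pair differed between the libraries, over the 7 classes and the monocytes; smaller classes are not ranked. In KO the pair was highest in monocytes, a class of 89 KO and 27 WT cells that was described but not compared, and lowest in mature dendritic cells, 39.5-fold apart. In WT it was highest in cDC1 and lowest in CD8 T cells, 3.28-fold apart, and every neighbour in that order had an overlapping interval. Hspb1 was too sparse to order: it was found in 8 of 1083 KO cells and 12 of 983 WT cells.

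Counted by the 1.5-fold rule among members with at least 50 CPM in 1 library, CD4 T cells stood out. There, 5 of 8 measured members were higher in KO and 0 were lower, where 4.58% of 3038 genes were higher and 5.46% lower. Cycling cells weigh on these sums, since 15 of the 177 KO cells held 254 of the 453 Hspd1 UMIs and 492 of the 932 Hsp90aa1 UMIs. Among the other CD4 T cells Hsp90ab1 had 2511 CPM in KO and 1926 CPM in WT, under 1.5-fold, while the other called members stayed past it. In CD8 T cells 1 of 7 was higher (Hspd1) and 0 lower, where 6.42% of 2743 genes were higher and 5.61% lower. In T cells without a co-receptor UMI 3 of 8 were higher and 1 was lower, where 7.85% of genes were higher and 14.6% lower. Among the myeloid classes, cDC1 had 1 of 8 members higher (Hsph1) and 0 lower, where 1.98% of genes were higher and 2.18% lower, and cDC2 had 3 of 9 higher and 1 lower, where 5.94% were higher and 4.63% lower. Mature dendritic cells had 0 of 7 higher and 1 lower (Hspa1a), where 6.1% of genes were higher and 6.33% lower. Macrophages had 1 of 7 higher and 0 lower, where 6.74% were higher and 8.67% lower. In CD8 T cells, cDC1, mature dendritic cells and macrophages these are single genes. Some called members passed the floor through their higher library only. These were Hsph1 in CD4 T cells, cDC1 and cDC2, and Hspb1 in cDC2. Hspa1a did so in mature dendritic cells and T cells without a co-receptor UMI. At a floor of 200 CPM, 0 of 4 members were called in cDC1, cDC2, mature dendritic cells and macrophages each. There 0.596 to 4.37% of genes were higher and 2.38 to 4.62% lower. CD4 T cells kept 4 of 5 higher, where 2.57% of genes were. CD8 T cells kept 1 of 5 (4.88%) and T cells without a co-receptor UMI 3 of 5 (4.34%).

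**Figure D2:**
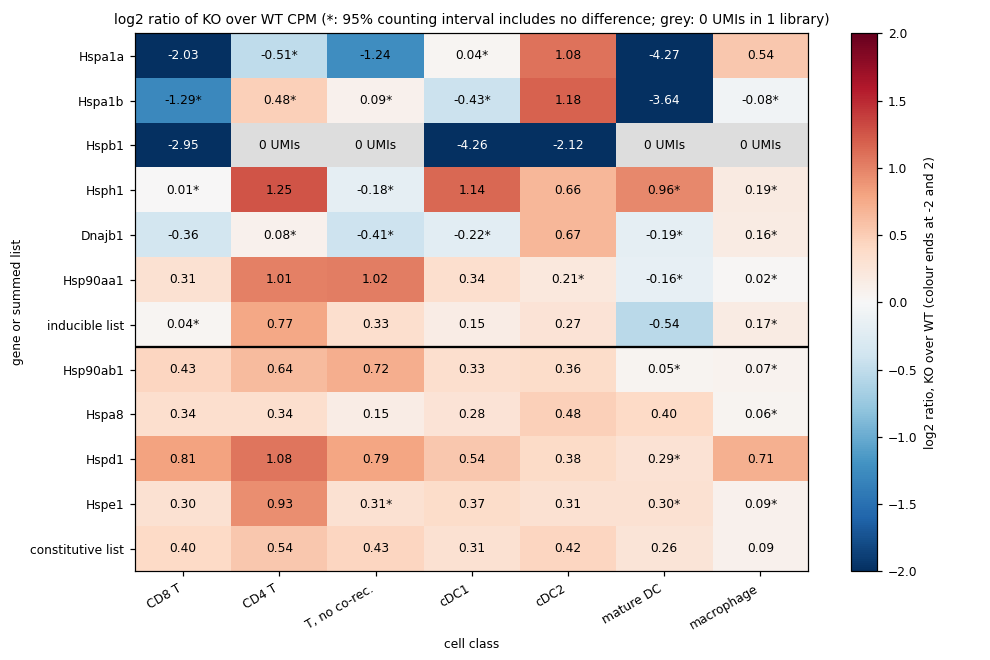
Log2 ratio of KO over WT CPM for each gene and each summed list (rows, inducible above the line and constitutive below it) in the 7 compared classes (columns); red is higher in KO, blue is lower in KO, a star marks a 95% counting interval that includes no difference, and grey cells had 0 UMIs in 1 library. The constitutive block is red throughout, reaching 1.08 for Hspd1 in CD4 T cells, while the top 3 inducible rows hold the deepest blue, such as -4.27 for Hspa1a in mature dendritic cells.

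Few cells held most UMIs of the HSP70 genes, and these came from several classes. Cells with 10 or more UMIs of Hspa1a and Hspa1b, a threshold set after the values were seen, numbered 23 of 1083 in KO (2.12%, Clopper-Pearson interval 1.35 to 3.17%) and 24 of 983 in WT (2.44%, 1.57 to 3.61%). These cells held 850 of the 1187 UMIs of the pair in KO (71.6%) and 578 of the 875 in WT (66.1%). The intervals of both shares overlapped, and the cells were spread over classes: 6 KO and 8 WT cDC1, 6 KO and 2 WT cDC2, 3 KO and 2 WT macrophages, 3 KO and 3 WT CD4 T cells, and 0 KO and 3 WT mature dendritic cells. Just inside the threshold, with 10 to 12 UMIs, lay 8 KO and 7 WT cells, and just outside it, with 7 to 9 UMIs, lay 10 KO and 10 WT cells. A threshold in UMIs favours deep cells: the median depth was 11599 UMIs in the 23 KO cells and 9698 UMIs in the 24 WT cells, against 7991.5 UMIs in other KO cells and 6039 UMIs in other WT cells. The median mitochondrial share was 1.47% in the KO and 1.82% in the WT high cells, against 1.87% in other KO and 1.89% in other WT cells.

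Single cells show what the sums hide. The highest cell, a KO cDC1, held 201 Hspa1a and 23 Hspa1b UMIs among 5045 UMIs, together with 33 Hsph1, 57 Hsp90aa1, 99 Hspa8 and 43 Hspe1 UMIs, but 3 Dnajb1 UMIs and 0 Hspb1 UMIs. The highest WT cell, also a cDC1, held 102 Hspa1a and 32 Hspa1b UMIs among 5673 UMIs, together with 70 Hspb1, 32 Dnajb1, 11 Hsph1 and 44 Hsp90aa1 UMIs. Both cells thus carried several inducible members at once, with different partners of HSP70. A second KO cDC1 held 108 UMIs of the pair and 25 of Bag3, the HSF1 target that links HSP70 to small heat-shock proteins, and a KO monocyte held 98 with 24 Dnajb1 UMIs. The WT CD8 T cell that decided its class held 46 of the pair, 15 of Hspb1 and 11 of Dnajb1 among 7917 UMIs.

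Compared with other cells of the same classes and library, the high cells carried more of Hsph1, Dnajb1 and Hsp90aa1. Hsph1 was 5.93-fold higher in KO and 8.52-fold higher in WT high cells, Dnajb1 3.36-fold and 5.90-fold, and Hsp90aa1 3.19-fold and 2.92-fold. Without the 1 high cell with the most UMIs of each gene, these were 4.19-fold in KO and 6.99-fold in WT for Hsph1, 2.62-fold and 4.34-fold for Dnajb1, and 2.75-fold and 2.43-fold for Hsp90aa1. Hspb1 was found in 1 of 23 KO and 3 of 24 WT high cells, and its ratios of 3.64 in KO and 28.9 in WT were 0 in KO and 10.4 in WT without the top cell. The mitochondrial pair lay between, with Hspd1 1.97-fold in KO and 2.14-fold in WT and Hspe1 2.28-fold and 1.95-fold, and the constitutive cytosolic pair was closest to the other cells, with Hsp90ab1 1.40-fold and 1.34-fold and Hspa8 1.41-fold and 1.04-fold. Of the other genes looked at, Bag3 was 6.80-fold in KO and 3.72-fold in WT, but 1 cell held 25 of the 51 KO UMIs and 1 held 10 of the 17 WT UMIs. Jun, an immediate early gene of dissociation, was 2.30-fold in KO and 3.02-fold in WT, while Fos, of the same kind, was 1.06-fold in KO and 1.96-fold in WT; their part was not tested. Chordc1 was 1.54-fold in KO and 0.744-fold in WT, and Hmox1, the heme oxygenase gene, was 2.19-fold in KO and 1.07-fold in WT.

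**Figure D3:**
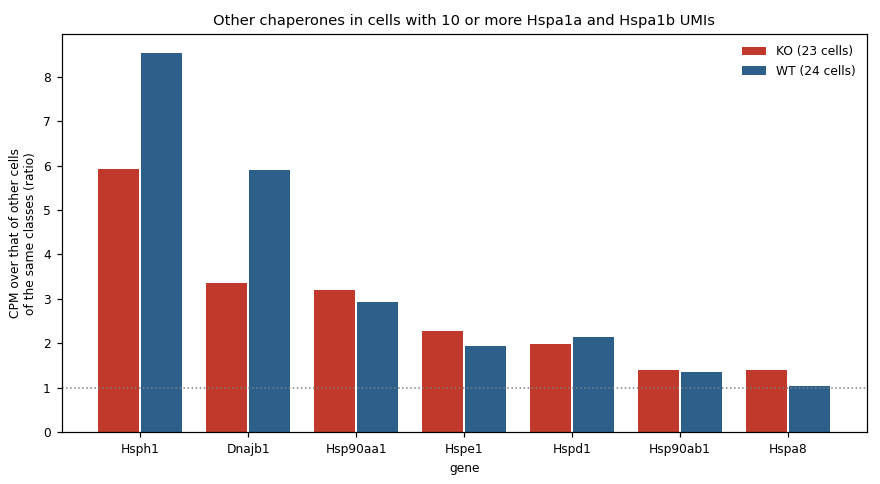
Ratio of CPM in the 23 KO (red) and 24 WT (blue) cells with 10 or more Hspa1a and Hspa1b UMIs to CPM in other cells of the same classes and library (y axis), for 7 members (x axis; Hspb1, found in 1 KO and 3 WT high cells, is not drawn); bars start at 0, have no error and the dotted line marks equal levels. Of the 7, the ratio is largest for Hsph1, at 5.93 in KO and 8.52 in WT, and it lies between 1.04 and 1.41 for Hsp90ab1 and Hspa8 in both libraries.

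Spread over cells set some inducible genes apart, but not all of them. On cells thinned to 2000 UMIs each, the variance over the mean of Hspa1a reached 59.0 in KO and 19.5 in WT cDC1, where a random draw with equal levels in every cell gives values near 1. Of the thinned UMIs behind these values, 1 KO cell held 75 of 100 and 1 WT cell 32 of 54. Over the genes and compared classes, the median was 1.55 in KO and 2.18 in WT for the inducible list, and 1.82 in KO and 1.63 in WT for the constitutive list. The value is fixed at 1 where 1 UMI remains, as for Hspa1a in KO mature dendritic cells, and entries with 0 UMIs were left out. Sparse inducible genes therefore weigh on these medians, which cannot compare the lists. Among constitutive members the highest value was 4.36 in KO and 3.34 in WT, both for Hspa8 in cDC1. To reach 50% of all Hspa1a UMIs took 6 KO cells and 13 WT cells, whereas 50% of all Hspa8 UMIs took 176 KO cells and 147 WT cells. Not all inducible genes were so concentrated, since Dnajb1 needed 128 KO and 99 WT cells and Hsp90aa1 96 KO and 93 WT cells, close to Hspd1 with 80 KO and 77 WT cells; depth differs between cells in these counts, which were not thinned.

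At 2000 UMIs a cell, Hspa8 was found in 88.5 to 98.9% of cells of the compared KO classes and 88.2 to 100% of the compared WT classes. Hspa1a or Hspa1b was found in 1.69% of KO CD8 T cells and 1.88% of WT CD8 T cells, the lowest shares of the 7 classes, and in 6.49% of KO cDC1 (12 of 185 cells, interval 3.40 to 11.1%) and 11.4% of WT cDC1 (19 of 167 cells, 6.99 to 17.2%). Without thinning the cDC1 shares were 26.3% in KO and 33.7% in WT. No class here is known to lack HSP70 genes, so free RNA in the droplets could not be measured from a class at 0, and its part in cells with 1 UMI was not tested. On the thinned cells, those with an Hspa1a UMI more often had an Hspa1b UMI, in 9 of 44 KO cells and 20 of 50 WT cells. Cells without one had it in 11 of 965 KO cells and 8 of 836 WT cells. The split of the pair cannot be relied on, which limits these counts too.

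Hspb1, the small heat-shock protein, was carried almost wholly by single cells. In KO cDC2 30 UMIs lay in 3 of 99 cells, while in WT cDC2 75 UMIs lay in 1 of 54 cells. WT cDC1 had 83 UMIs, 70 of them in the cell with the most HSP70 UMIs, against 5 UMIs in 1 KO cDC1, and WT mature dendritic cells had 23 UMIs in 1 cell, against 0 in KO. The Hspb1 ratios between the libraries therefore compare a handful of cells. The WT cDC2 with 75 Hspb1 UMIs had 1 Hspa1a and 1 Hspa1b UMI, so Hspb1 also occurred without HSP70 induction of that size.

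**Figure D4:**
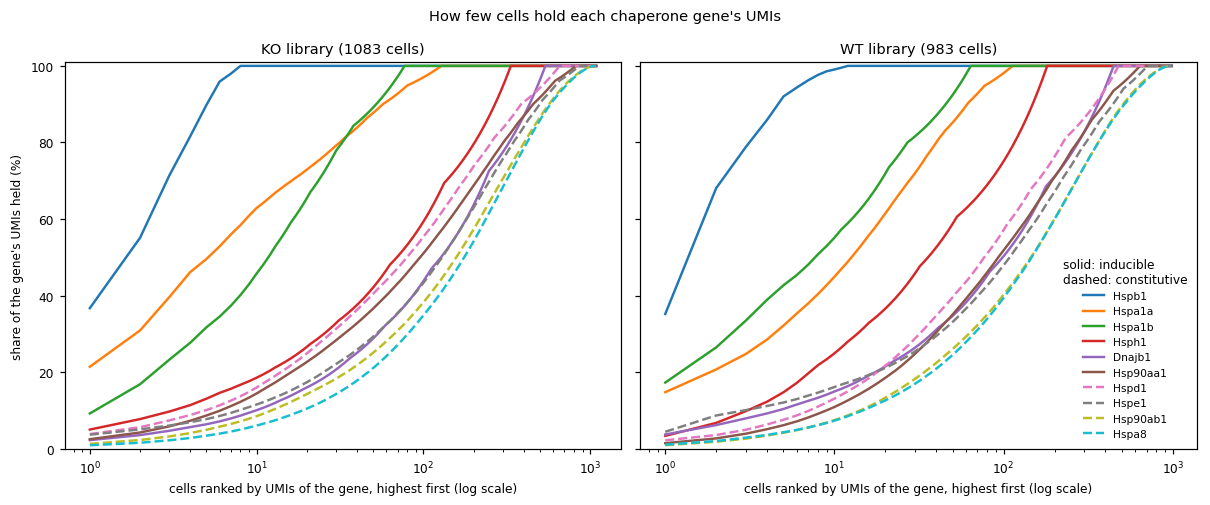
Share of each gene's UMIs (y axis, percent) held by the cells with the most UMIs of that gene (x axis, cells ranked from the highest, log scale), in the KO library on the left and the WT library on the right, with inducible genes solid and constitutive genes dashed. Hspb1, Hspa1a and Hspa1b rise at once, with 62.9% of Hspa1a UMIs in the top 10 KO cells and 44.9% in the top 10 WT cells, while Hsp90aa1 and Dnajb1 run with the constitutive genes.

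Cycling cells were the other place where members of the lists parted. Cycling CD8 T cells, from the cluster led by histone genes and Top2a, had 636 CPM of Hsp90aa1 in KO, against 443 CPM in other KO CD8 T cells, a ratio of 1.44 (1.26 to 1.64). In WT they had 675 CPM, against 320 CPM in other WT CD8 T cells, a ratio of 2.11 (1.75 to 2.53). Hspd1 had 431 CPM in cycling and 328 CPM in other KO CD8 T cells, and 298 CPM in cycling and 176 CPM in other WT CD8 T cells. Hsp90ab1 had 3785 CPM in cycling and 3020 CPM in other KO CD8 T cells, and 3227 CPM in cycling and 2158 CPM in other WT CD8 T cells. All 3 genes were thus higher in cycling cells of both libraries, on 26 KO and 14 WT cycling cells. Hspa8 was also higher, with ratios of 1.22 in KO and 1.15 in WT. Hspe1, the partner of Hspd1, was not, with ratios of 1.05 (0.918 to 1.20) in KO and 0.868 (0.698 to 1.07) in WT. The intervals of Hsph1 and Dnajb1 also included 1 in both libraries. The HSP70 pair had 0 UMIs in these 26 KO and 14 WT cells. With 3 counts over the group in place of 0, it would be 3.48-fold lower than in other KO cells and 5.99-fold lower than in other WT cells. The exact intervals of the ratio reach up to 0.38 in KO and 0.212 in WT, so smaller differences are not excluded. One cell held 46 of the 59 UMIs of the WT comparison, and 1 cell held 11 of the 26 UMIs of the KO comparison.

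Among CD4 T cells the cycling cells, 15 KO and 9 WT, carried the largest ratio of the constitutive list among the 5 clusters. Hspd1 had 602 CPM in KO and 220 CPM in WT cycling CD4 T cells, a ratio of 2.74 (2.01 to 3.78), against 224 CPM in KO and 148 CPM in WT among other CD4 T cells, a ratio of 1.51 (1.20 to 1.91). Hsp90aa1 had 1166 CPM in KO and 572 CPM in WT cycling cells, and 494 CPM in KO and 293 CPM in WT other cells. The difference between these ratios was not tested. The HSP70 pair was higher in cycling KO CD4 T cells, at 92.4 CPM, against 38.2 CPM in other KO CD4 T cells. That was a ratio of 2.42 (1.49 to 3.95), with 27 of the 39 cycling UMIs in 1 cell. In WT the pair was lower in cycling cells, with 3 UMIs or 13.2 CPM, against 79.5 CPM in other WT CD4 T cells, a ratio of 0.166 (0.0334 to 0.507). In cDC1, cycling cells had fewer HSP70 UMIs in KO (34.9 CPM, against 196 CPM in other KO cDC1) but not clearly so in WT (141 CPM, against 161 CPM in other WT cDC1, interval of the ratio 0.675 to 1.12), and 1 cell held 224 of the 440 UMIs of the other KO cDC1. Hspa8 in KO cDC1 ran against the CD8 T cells, with 4042 CPM in cycling and 4807 CPM in other KO cDC1 (ratio 0.841, 0.809 to 0.874).

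**Figure D5:**
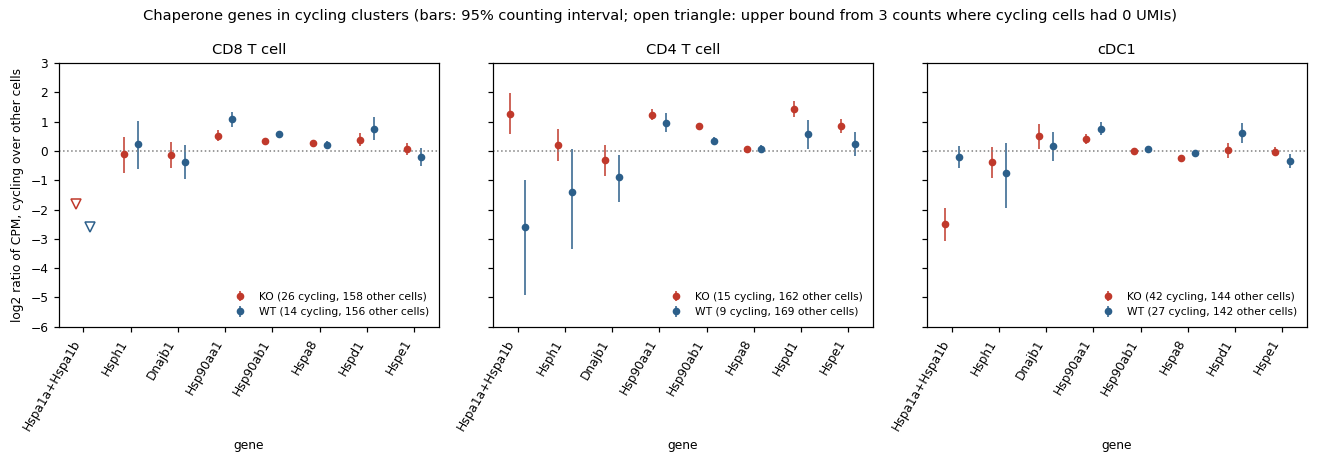
Log2 ratio of CPM in cells of cycling clusters over other cells of the same class and library (y axis) for 8 values (x axis), in CD8 T cells, CD4 T cells and cDC1, KO in red left of WT in blue. Bars are 95% counting intervals. An open triangle takes 3 counts in place of 0 UMIs in cycling cells and is not the end of the exact interval. Hsp90aa1 lies above 0 in each of the 3 classes and both libraries, and the HSP70 pair lies below 0 except in KO CD4 T cells.

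Other chaperone groups were read from lists that do not contain the members. The CCT chaperonin, the cytosolic folding chamber for actin and tubulin, had 7 of 7 measured subunits above 0 in log2 ratio in CD8 T cells, with a median of 0.36 beside 0.09 over all genes, in CD4 T cells with a median of 0.42, and in T cells without a co-receptor UMI with a median of 0.40. In CD8 T cells the ratio was 1.46 (1.25 to 1.70) for Tcp1 and 1.44 for Cct3, 1.14 for Cct7 and 1.09 for Cct4, and 0 of 7 passed 1.5-fold. In cDC1 4 of 7 subunits lay above 0, with a median of 0.03.

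The endoplasmic reticulum chaperones, which fold secreted and membrane proteins, had 6 of 12 measured genes at least 1.5-fold higher and 0 lower in KO CD8 T cells, where 6.42% of all genes were higher, with a median log2 ratio of 0.57. Pdia4, a disulfide isomerase, stood at 91.7 CPM in KO CD8 T cells, against 49.3 CPM in WT CD8 T cells, a ratio of 1.86 (1.39 to 2.53), and Sdf2l1 at 137 CPM in KO, against 74.3 CPM in WT. At the low end, P4hb had a ratio of 1.16 and Dnajc3 of 0.994. Mature dendritic cells had 4 of 10 higher and 0 lower, where 6.1% of all genes were higher. CD4 T cells with 1 of 11 higher, cDC1 with 1 of 12, and cDC2 with 0 of 12 higher and 1 lower are at most single genes, beside 4.58%, 1.98% and 5.94% of all genes higher. Of the mitochondrial chaperones 2 were measured in CD8 T cells, Hspa9 (mitochondrial HSP70) with 97.1 CPM in KO and 73.5 CPM in WT and its nucleotide exchange factor Grpel1 with 111 CPM in KO and 103 CPM in WT, ratios of 1.32 (1.02 to 1.71) and 1.09 (0.870 to 1.36).

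Co-chaperones and further genes linked to HSF1 had 16 of 17 measured genes above 0 in CD8 T cells, 1 of them past 1.5-fold. That gene was Stip1, which hands clients over between HSP70 and HSP90, at 108 CPM in KO CD8 T cells, against 55.7 CPM in WT CD8 T cells, a ratio of 1.95 (1.48 to 2.59). Chordc1, an HSP90 partner, had a ratio of 1.45, and Cdc37, which brings kinases to HSP90, had a ratio of 1.02. In CD8 T cells the median log2 ratio was 0.29 for this list and 0.09 over all genes, of which 6.42% were past 1.5-fold. Genes of the list above 0 were fewer elsewhere: 14 of 17 in cDC1, 13 of 17 in cDC2, and 11 of 17 in CD4 T cells and in T cells without a co-receptor UMI. They were 8 of 17 in macrophages and 8 of 16 in mature dendritic cells. T cells without a co-receptor UMI had 5 of 17 genes higher and 0 lower, CD4 T cells 2 of 17, and cDC1 0 of 17. Of all genes, 7.85%, 4.58% and 1.98% were higher in these 3 classes in that order.

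Dissociation and immediate early genes, whose RNA appears soon after tissue handling, had median log2 ratios of KO over WT below 0 in all 7 classes, between -0.91 and -0.43. In CD8 T cells 4 of 10 measured genes were at least 1.5-fold lower, in CD4 T cells 8 of 11, in T cells without a co-receptor UMI 10 of 11 and in cDC1 9 of 13, with 0 higher in each. Counts were 4 of 13 lower in cDC2, 5 of 11 in mature dendritic cells, with 0 higher in each, and 8 of 13 in macrophages with 1 higher. Of all genes, between 2.18% in cDC1 and 14.6% in T cells without a co-receptor UMI were at least 1.5-fold lower. Fos stood at 43.1 CPM in KO CD8 T cells, against 128 CPM in WT CD8 T cells, a ratio of 0.336 (0.255 to 0.438), and Jun at 19.8 CPM in KO, against 55.7 CPM in WT; at the other end of the list Nfkbia had a ratio of 1.06 and Jund of 0.949. These genes moved with the lower HSP70 pair in 5 of the 7 classes and against the higher constitutive list in all 7, and their part in either was not tested. Of these 5, CD4 T cells and cDC1 had an interval of the pair that included 1. In T cells without a co-receptor UMI the pair's ratio was 2.18 without the high cells, all of which were WT. In CD8 T cells and mature dendritic cells 1 WT cell held most of the WT UMIs of the pair. Without the top cell of each library the pair's log2 ratio was -0.49 in CD8 T cells and -4.48 in mature dendritic cells. It was -0.45 in T cells without a co-receptor UMI. Of the oxidative and metal stress genes, Mt1 stood at 190 CPM in KO CD8 T cells, against 54.9 CPM in WT CD8 T cells, a ratio of 3.45 (2.66 to 4.54), and Ddit4 at 143 CPM in KO and 165 CPM in WT. T cells without a co-receptor UMI had 3 of 3 measured genes of this list lower. CD4 T cells and mature dendritic cells had 1 of 3 lower and cDC1 1 of 2, with 0 higher in each. Of all genes, 14.6%, 5.46%, 6.33% and 2.18% were lower in these classes in that order. In cDC2 0 of 2 were called. Macrophages had 2 of 6 higher and 3 lower, where 6.74% of genes were higher and 8.67% lower.

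The genes whose levels ran most like the members differed between the HSP70 pair and HSP60. Over 20 values, 1 for each of 10 classes in each library, the 5 genes of 5156 most like Hspd1 by Pearson r on log2(CPM + 10) were Cct7 (0.91), Nop56 (0.88), Ncl (0.88), Ndufb7 (0.86) and Erh (0.86). Those most like the HSP70 pair were Slc30a7 (0.84), Stat2 (0.81), Kdm7a (0.79), Atf6b (0.78) and Lamtor5 (0.76). Among the members themselves Hspd1 ran with Hspe1 (0.83), Hsp90aa1 (0.77), Hsph1 (0.73) and Hsp90ab1 (0.71), whereas the HSP70 pair ran with none of the other 8, with values between -0.25 for Hsp90ab1 and 0.23 for Hspb1. These are descriptions over values that share libraries, depth and, between the libraries, cell types, and single cells set many of the HSP70 values.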

How the data were processed

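Each library's raw gene-by-cell matrix of UMI counts was used as deposited by the authors; the submitters' processing notes name Cell Ranger 1.3 and mm10, and the matrix header gives software version 3.0.2. Cells with under 500 UMIs, under 300 genes or over 10% mitochondrial UMIs were left out, as were the 3 KO and 5 WT cells a doublet caller marked, a share too low to show that the caller worked. Python 3.11.15, scanpy 1.11.5, leidenalg 0.10.2, numpy 2.4.6 and scipy 1.17.1 were used. Clustering left out the chaperone, stress and Tcf7 genes; T cells were split by Cd4, Cd8a and Cd8b1 UMIs, and clusters were named from at least 3 markers. One barcode was shared by both libraries.

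UMIs were summed per class and library as CPM with exact Poisson intervals, ratios were KO over WT with exact conditional binomial intervals at 95%, and a gene counted as called at 1.5-fold with at least 50 CPM in 1 library. The ratio code was checked on simulated counts. Named genes were all 10 members, the 2 highest and 2 lowest of each other list in CD8 T cells, and the 5 genes most like the HSP70 pair and Hspd1. One gene that this rule names is not reported here. Members and lists were chosen with earlier results of these data known; Bag3, Jun, Fos, Chordc1 and Hmox1 in the high cells and the gene pairs found together were named after their values were seen.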

Additional observations from a re-analysis of the deposited data

How the results depend on the processing

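Of 1172 values recomputed under an alternative, 922 were classed as the same, 237 as moved and 13 as reversed. The counting interval of the reported value served for ratios and shares, but not for counts of genes or classes. The 13 do not include every change of direction. The inducible ratio in CD8 T cells, reported as 1.03, was classed as moved at 0.696 without Hsp90aa1. In macrophages it was reported as 1.12, and its lowest alternative, 0.950, is not among the 13. The cause of these changes was not tested. The constitutive ratio in CD8 T cells moved to 1.24 under median-of-ratios scaling and was above 1 in all 7 classes under 9 alternatives. The inducible ratio in CD8 T cells was 1.22 as a mean of each cell's CPM, 1.15 without the cell with most UMIs in each library, 1.22 without cells of 10 or more Hspa1a and Hspa1b UMIs, 1.33 without cells with a Mki67 or Top2a UMI (both chosen after seeing the data), 0.696 without Hsp90aa1 and 0.270 for Hspa1a and Hspa1b alone. Without Hsp90aa1 it was higher in KO in 3 of 7 classes, and for the HSP70 pair alone in 2. In T cells without a co-receptor UMI it reversed to 0.912 without cycling clusters, 0.957 by the marker gate, 0.787 without Mki67 or Top2a cells, 0.677 without Hsp90aa1 and 0.487 for the pair alone, and without the high cells Hspa1a reversed to 2.67 and the pair to 2.18. Other inducible ratios classed as reversed were 0.853 for the pair alone in CD4 T cells and 1.04 without the high cells in mature dendritic cells. In cDC1 they were 0.948 without Hsp90aa1 and 0.967 for the pair alone. In cDC2 they were 0.968 as a mean of cell CPM and 0.840 by the marker gate. The high cells were 0 KO and 2 WT T cells without a co-receptor UMI, and 0 KO and 3 WT mature dendritic cells. Removing them trimmed WT alone, so those reversals cannot show a direction. At 2-fold, 0 genes linked to HSF1 and 0 endoplasmic reticulum chaperones were called higher in CD8 T cells, where 1.13% of 2743 genes were. The share of KO cDC1 with an HSP70 UMI was 2.16% at 1000 UMIs and 26.3% not thinned, and that of WT cDC1 33.7% not thinned. As means of cell CPM, the ratio of cycling over other CD8 T cells was 1.66 for Hsp90aa1 in KO, 1.59 for Hspd1 in KO and 2.29 for Hspd1 in WT. No ratio was taken for Hspb1 in macrophages, where WT had 0 UMIs. No paired analysis was possible because each genotype has 1 library. Depth limits the sparse members, with 49 KO and 213 WT UMIs of Hspb1, 657 KO and 325 WT UMIs of Hsph1 and 1187 KO and 875 WT UMIs of the HSP70 pair.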
